A study of Mus musculus with 12 samples.

Results

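Cassette splicing leaves a stretch of a gene in the RNA or takes it out together with both flanking introns. Among the splicing clusters of nascent RNA from mouse embryonic stem cells (mESCs), 2411 had the shape of a cassette, with 3 introns of which one starts where the first begins, ends where the second ends and so skips the stretch between them. In 186 of these 2411 clusters the stretch between the 2 inclusion junctions was longer than 250 nt, and these long cassette parts are described here. They were found by length alone, counted as genomic bases between the junctions, and ran from 252 nt in Larp4b to 49787 nt in Dync1h1. The name "long exon" holds for a minority. Only 72 of the 186 were 1 annotated exon, 89 held annotated introns of their own, and 25 matched no annotated exon of that extent. Sorted by the authors' splicing test, 4 of the 186 clusters changed after METTL3 was removed, namely Utp14a, Ankhd1, Mrpl15 and Trps1, while 0.702% of all tested clusters did. In all 4 the junction that skips the part had the higher share in treated cells, as it had in 57.1% of all 2411 cassettes.

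Most internal exons of mammals are short, since the splicing machinery pairs the acceptor and the donor of an exon across it, and long internal exons are the exception. METTL3 is the catalytic subunit of the enzyme complex that writes N6-methyladenosine (m6A) on RNA. Long internal exons and the start of last exons are known as places where m6A is dense in mRNA, and reader proteins of the YTH family bind the mark. Cassette parts can be protein-coding, or can be "poison" exons that carry a stop codon and send the transcript to nonsense-mediated decay.

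The cells were female mESCs of the hybrid strain background 129S x Cast, grown on feeders, in which Mettl3 carries a C-terminal FKBP12(F36V) tag and Xist can be induced with doxycycline. Both features were shared by all 12 samples. Through the tag, the small molecule dTAG-13 sends METTL3 to degradation. The 6 dTAG samples had dTAG-13 for 3 h and the 6 Ctrl samples had none (0 h), and 4-thiouridine, which marks newly made RNA, was then given for 30 min. Each group held 3 samples of each of 2 clones, C3 and H5, so that the line is represented by these 2 clones. The values are a percent spliced in (PSI) for each intron and condition, written as a fraction from 0 to 1, which is the part of a cluster's junction reads that fall on the intron. The 3 PSI of a cassette sum to 1. RNA that includes the part can give reads on both inclusion junctions, and RNA that skips it on only 1 junction. A skipping PSI can therefore understate the share of RNA that skips the part. Each PSI is 1 value fitted over the 6 samples of a condition, so no value of a single sample and no replicate error can be given, and the depth behind a value is unknown. The p-value belongs to the whole cluster and tests the condition across the 12 samples. No expression levels were analysed here, and the cell type was looked at only through which marker genes had a tested cluster. This was so for 8 of 12 stem cell markers, 1 of 8 feeder fibroblast markers (Fn1) and 0 of 8 differentiation markers. A gene that is expressed without alternative introns has no cluster, so these counts cannot establish the cell type or the share of feeders.

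A total of 3 sets of sequence show what these parts look like. All were read from the GRCm38 reference (mm10) on the transcript strand, 5′ to 3′, and the reference is C57BL/6J, so the alleles of the 129S x Cast cells may differ from it. The first set gives the edges of 2 of the changed parts, with 20 intron bases in lower case and 10 bases of the part in capitals. The acceptor windows lie at chrX:48266395-48266424 and chr1:4782292-4782321, and the donor windows at chrX:48272173-48272202 and chr1:4778728-4778757. Every one of these edges has the AG or GT of an intron next to it.
Utp14a acceptor: ttttgattttgattttatagGGGATTTTAC
Utp14a donor: CAGCTATAAGgtaattaattagtgcttgtt
Mrpl15 acceptor: cttgcacctcttcacttcagGTGCACACTT
Mrpl15 donor: TTAGGGATAGgtaagatttgttttttatta

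The second set gives the RNA made when the part is left out. Shown are the last 15 bases of the upstream exon in lower case and the first 15 bases of the downstream exon in capitals, for 5 wholly coding exons on which results turn.
Lrr1: atctgtctgagtaagGATTCCATATGGCCC
Ythdf1: ggacagtccaatccgGAAAGACAGAATCGA
Ythdf2: ccacaggcaaggccgGAACGTCAAGGTCGT
Rab11fip1: ggctgtgaagccgagGCCTCACCCTGTGAA
Ncoa6: caaaccggccaccagCCCCTTCACAGAATT

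The third set shows GGACT, the DNA letters of the commonest m6A consensus, in coding bases of long single exons, with 50 bases on each side and the motif in capitals. The motif begins at base 255 of the Stk35 exon, 1236 of Ythdf1, 1299 of Ythdf2 and 60 of Klf2.
Stk35: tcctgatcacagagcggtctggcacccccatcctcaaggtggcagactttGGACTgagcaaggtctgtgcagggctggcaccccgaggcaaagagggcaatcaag
Ythdf1: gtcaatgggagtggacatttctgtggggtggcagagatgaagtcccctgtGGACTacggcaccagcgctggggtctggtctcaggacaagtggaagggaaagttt
Ythdf2: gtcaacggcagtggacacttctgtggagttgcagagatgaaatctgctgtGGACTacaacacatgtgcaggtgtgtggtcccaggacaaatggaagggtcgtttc
Klf2: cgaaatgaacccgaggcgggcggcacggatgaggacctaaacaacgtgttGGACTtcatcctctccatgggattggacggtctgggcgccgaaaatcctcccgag
The windows of the paralogs Ythdf1 and Ythdf2 were the same at 82 of 105 bases.

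What the 186 parts are was read from GENCODE vM21. Of the 72 single exons, 54 were wholly coding in at least 1 transcript and 11 partly coding. The remaining 7 occurred only in decay, retained-intron or noncoding transcripts, among them those of Srsf3, Srrt, Tial1 and Stoml1. The 72 had a median length of 343.5 nt, and the longest were those of Plec, a plakin cytolinker, with 3381 nt and 1127 codons, Urb2 with 3331 nt, and Ncoa6, a nuclear receptor coactivator, with 2976 nt and 992 codons. In 19 of the 72 the exon held at least 25% of the coding bases of its transcript. Of the 54 wholly coding exons, 36 had a length divisible by 3, against 795 of 1665 wholly coding cassette exons of up to 250 nt. The difference between these 2 shares was not tested.

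The 89 parts with annotated introns inside are mostly pairs of exons that are skipped together. For 80 of them a single transcript runs from the first to the last base. Where several did, the one with the fewest exons was counted. It passed through 2 exons in 66 cases, 3 in 8 and 4 or more in 6. Spliced, these chains had a median of 241.5 nt, and 44 of the 80 came to 250 nt or less, so their length above the threshold is intron. The largest chain was that of Dync1h1, the heavy chain of cytoplasmic dynein, where the skipping junction passes 70 exons. The giants Dst and Macf1, a further pair of plakins, each skipped 5 exons, with 6042 and 6081 spliced nt.

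The 9 parts with introns but without such a transcript include 6 clusters that carry several gene names. Among these are tandem relatives such as Lefty2 and Lefty1, Tuba1b and Tuba1a, Zfp729b and Zfp729a, Rhox5 and Rhox6, and Zfp626 and Zfp59. Here the junctions join neighbouring genes of 1 family, and reads of near-identical copies can be placed on the wrong one, so these clusters are uncertain.

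The 25 parts without a matching exon were long, with a median of 2979 nt. In 9 the acceptor was that of an annotated last exon while the donor was not annotated, among them Utp14a, Mrpl15, Sfpq and Tet2. In 5 the acceptor was not annotated and the donor was that of an annotated first exon. In 7 an annotated last exon and an annotated first exon framed the part, in most cases across several genes. In 3 neither edge was annotated (Hspa4, Rps15a and Swi5), and Csnk2a1 made up the remainder. In such a cluster the upstream and downstream junctions need not lie on 1 molecule. An acceptor of an annotated last exon was also found in 19 of the 72 single exons and 23 of the 89 parts with introns. Among the shorter cassettes it was found in 17.7%. There too the upstream and downstream junctions need not lie on 1 molecule.

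**Figure D1:**
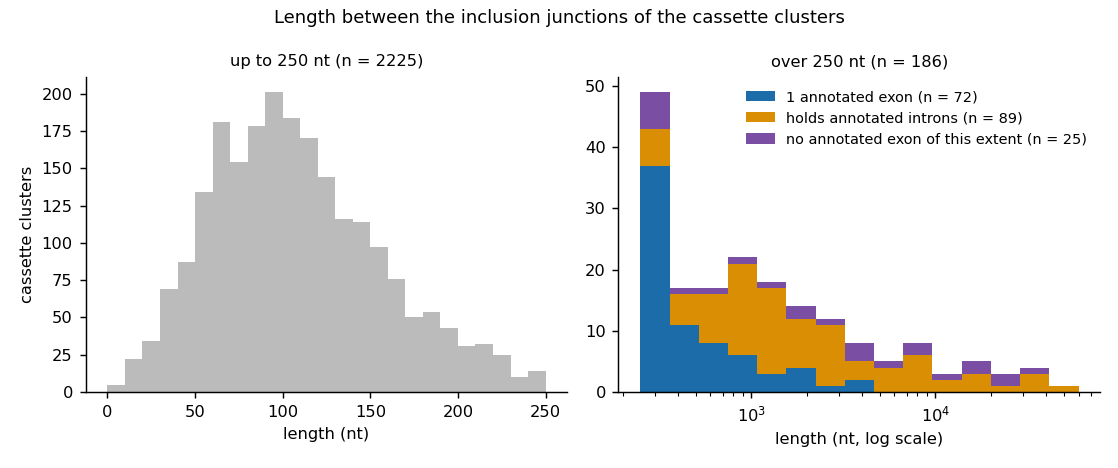
Number of cassette clusters by the length between the inclusion junctions in nt, for clusters up to 250 nt (left, linear axis, bins of 10 nt) and over 250 nt (right, log axis, coloured by what the annotation holds there). Single annotated exons are 48 of the 65 parts from 250 to 500 nt, and all parts beyond 3381 nt hold introns or match no exon.

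In untreated cells the median skipping PSI of the 186 parts was 0.0825, with values from 0.00320 (Trps1) to 0.992 (Hspa4). For the 2225 cassettes of up to 250 nt the median was 0.0790. The highest values belonged to parts with neither edge annotated, the other two being Rps15a (0.987), a ribosomal protein gene, and Swi5 (0.977), a recombination repair gene. Skipping was below 0.1 in 108 of the 186 parts and above 0.5 in 29. The 3 kinds of part differed in level, with a median of 0.0961 for single exons, 0.0525 for parts with introns and 0.376 for parts without a matching exon, and these differences were not tested.

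The single exons seen only in noncoding or decay transcripts were mostly left out, with a median skipping PSI of 0.634 over 7. This was not particular to long exons, since 165 such exons of up to 250 nt had a median of 0.744. Srsf3, an SR splicing factor whose long decay exon is a textbook case of self-regulation, skipped it at 0.634 in untreated and 0.669 in treated cells. Srrt, which links the cap-binding complex to RNA processing, skipped its decay exon of 330 nt at 0.809 and 0.806. Wholly coding long exons had a median of 0.0947, and wholly coding exons of up to 250 nt one of 0.0458. A skipping PSI above 0.5 in untreated cells was seen in 4 of the 54, namely Ndufv3, Myb, Ncoa6 and Kif23. With inclusion taken from the mean of both inclusion junctions, Rab11fip1 was also included at less than 0.5 (0.477). Ndufv3, a subunit of respiratory complex I whose 1092-nt exon holds 77.8% of the coding bases of its longer form, skipped it at 0.916 and 0.922. The 312-nt exon of Kif23, a kinesin of the central spindle, was skipped at 0.520 and 0.546.

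Fn1 encodes fibronectin, and 2 of the parts are its alternative type III repeats. The 270-nt exon at chr1:71603660-71603929 was skipped at 0.0363 in untreated and 0.0258 in treated cells. The 273-nt exon at chr1:71613763-71614035 was skipped at 0.256 and 0.261. Neither cluster passed the test (p = 0.330 and 0.656 in the authors' deposited table). Fn1 was also on the list of feeder fibroblast markers, and the cells were grown on feeders. The share of these reads that came from untagged feeder cells is unknown, so the values may not be those of the mESCs alone.

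Splice site strength was scored against an evenly spaced sample of the annotated introns of protein-coding transcripts, very short introns left out. Scores are in bits relative to equal base frequencies. They cover 20 intron and 3 exon bases at acceptors, and 3 exon and 6 intron bases at donors. The long parts had a median acceptor of 9.41 bits and donor of 7.93 bits, and the cassettes of up to 250 nt 8.96 and 7.87. The quartiles of the long parts at the acceptor were 6.58 and 11.8 bits, and those of the shorter cassettes 6.67 and 11.1 bits. These differences were not tested. Weak and strong ends of the range are shown by 4 sites, with the bases of the part in capitals. The decay exon of Srsf3 had an acceptor of 0.678 bits. Pcmtd1 had the best acceptor among single exons, with 16.3 bits. The skipped Ndufv3 exon had the weakest donor of all 186 parts, with 2.25 bits, and Larp4b the strongest, with 12.8 bits.
Srsf3 acceptor: aaaaatgaaccccgttacagAGTCACCATC
Pcmtd1 acceptor: tattttttactcttttccagGTTTAATTTA
Ndufv3 donor: GACACACAGGgtacaccttgccttggttca
Larp4b donor: GGAGAGGAAGgtaagtcactcacatatttt

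In a plain cassette exon, the upstream and downstream inclusion junctions should be used alike. In 41 of the 186 long parts 1 of them had more than 3 times the PSI of the other in untreated cells, which is 22.0%, against 5.17% of the 2225 shorter cassettes. Within the long parts this held for 9 of 72 single exons, 17 of 89 parts with introns and 15 of 25 without a matching exon. Csnk2a1, a casein kinase subunit, had 0.0127 upstream and 0.973 downstream. Tmpo, a nuclear lamina protein gene, had 0.346 upstream and 0.0102 downstream. In such clusters a low skipping PSI does not mean that the whole part is included. The difference between the shares was not tested.

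**Figure D2:**
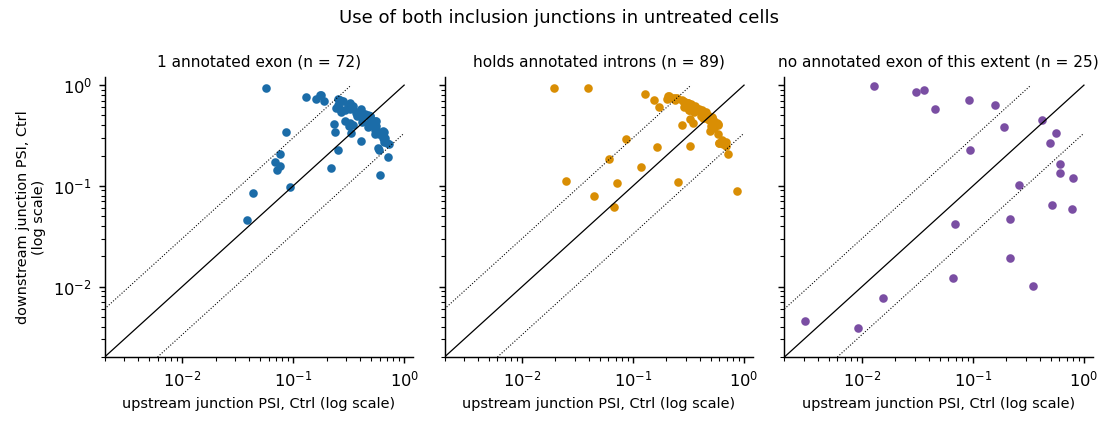
PSI of the upstream (horizontal) and downstream (vertical) inclusion junction in Ctrl cells on log axes, 1 point per long part, in 3 panels by annotation. The solid line marks equal use and the dotted lines a ratio of 3, and points of parts without a matching exon lie outside the dotted lines in 15 of 25 cases.

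Loss of METTL3 was asked about through the cluster test. Of the 186 long parts, 4 had an adjusted p under 0.05 (Benjamini-Hochberg over all 7263 tested clusters), which is 2.15%, against 0.702% of all tested clusters. With a p-value of at most 0.05 there were 19, or 10.2%, against 6.84% of all tested clusters and 5.21% of the shorter cassettes. Single exons made up 11 of the 19, which is 15.3% of the 72 single exons. For the other kinds the counts were 5 of 89 and 3 of 25. Whether any of these shares differs from the background was not tested, and read depth, which bears on which clusters can pass, is unknown for all of them.

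In direction the long parts were close to all cassettes. Skipping was higher in treated cells in 105 of the 186 long parts, or 56.5%, against 57.1% of all 2411 cassettes, and the median difference was 0.00211 for the long parts and 0.00193 for the shorter cassettes. Of the 19 with a p-value of at most 0.05, skipping PSI was higher in treated cells in 13 (6.99% of 186, against 3.11% of all cassettes) and lower in 6 (3.23%, against 2.49%). A difference of at least 0.1 was seen in 5 parts, or 2.69%, against 2.03% of all cassettes. These were Ankhd1, Adat3, Mrpl15, Rab11fip1 and Lrr1.

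**Figure D3:**
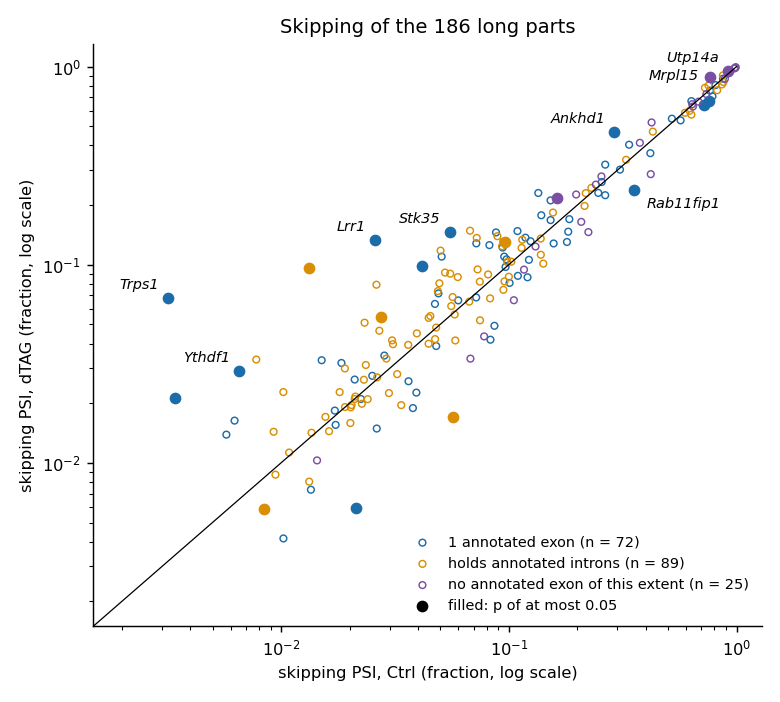
Skipping PSI of the 186 long parts in Ctrl (horizontal) and dTAG (vertical) cells on log axes, coloured by annotation and filled where p was at most 0.05. Named are the 8 parts with an adjusted p under 0.2, of which Rab11fip1 alone lies below the line of equal values.

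Utp14a, part of the complex that processes the small ribosomal RNA, had the smallest p-value of all long parts (p = 1.10e-07 in the authors' deposited table, and a recomputed adjusted p = 7.26e-05). Its part of 5768 nt at chrX:48266415-48272182 begins at the acceptor of an annotated last exon and ends at a donor that is not annotated. The upstream junction, into the alternative last exon, took 0.0666 of the cluster in Ctrl and 0.00807 in dTAG cells. The downstream junction had 0.0122 and 0.0408, and the skipping junction 0.921 and 0.951. Only the junction into the last exon had a lower share in treated cells.

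Mrpl15, a protein of the large mitochondrial ribosomal subunit, had the same layout, with a part of 3554 nt at chr1:4778748-4782301 behind a last-exon acceptor. The upstream junction took 0.216 of the cluster in Ctrl and 0.0937 in dTAG cells. The skipping junction had 0.765 and 0.889, a difference of 0.125 (adjusted p = 0.0194, recomputed from the authors' LeafCutter p-values). The downstream junction stayed low, at 0.0191 and 0.0170. In both genes the junction into the annotated last exon had the lower share in treated cells.

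Ankhd1, an ankyrin repeat protein with an RNA-binding KH domain, had the largest difference. Its exon of 759 nt, on chromosome 18 from 36624509 to 36625267, is wholly coding, with 253 codons. Skipping PSI was 0.290 in untreated and 0.465 in treated cells (adjusted p = 0.00993, recomputed from the authors' LeafCutter p-values). Both inclusion junctions had less, with 0.320 and 0.257 upstream and 0.390 and 0.278 downstream. Inclusion taken from the mean of both junctions was 0.550 in untreated and 0.365 in treated cells.

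Trps1, a GATA-type zinc finger repressor, had the lowest skipping of all 186 parts in untreated cells. The exon of 578 nt is wholly coding but its length is no multiple of 3. Skipping PSI was 0.00320 in untreated and 0.0678 in treated cells (adjusted p = 0.0359, recomputed from the authors' LeafCutter p-values). The downstream junction had 0.940 and 0.855, while the upstream junction, at 0.0571 and 0.0769, was far less used in both conditions. The skipping junction of Trps1 is not annotated.

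Next in order came 4 single exons that pass an adjusted p of 0.2 but not 0.05. Stk35, a nuclear protein kinase, skipped its 750-nt exon at 0.0552 in Ctrl and 0.146 in dTAG cells (adjusted p = 0.0547, recomputed from the authors' LeafCutter p-values). Lrr1, the substrate receptor of a ubiquitin ligase that unloads the replication machinery, had 0.0258 and 0.134 at a 722-nt exon with 57.0% of its coding bases (adjusted p = 0.0676, recomputed from the authors' LeafCutter p-values). In both, each inclusion junction had a lower PSI in treated cells. Rab11fip1, a Rab11 effector in recycling endosomes, went the opposite way, with 0.354 and 0.239 at an exon of 1563 nt and 521 codons (adjusted p = 0.0754, recomputed from the authors' LeafCutter p-values). Its downstream junction had 0.411 and 0.525, and its upstream junction 0.236 and 0.237.

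The fourth was Ythdf1, a cytoplasmic m6A reader. The exon of 1521 nt at chr2:180910687-180912207 holds 507 codons, or 90.7% of the coding bases, including the motif window shown above. Skipping PSI was 0.00653 in untreated and 0.0291 in treated cells (p = 0.00294 in the authors' LeafCutter test, and a recomputed adjusted p = 0.194). The skipping junction is not annotated, and nearly all reads of the cluster joined the exon in both conditions. The paralog Ythdf2 has a 1584-nt exon with 528 codons, and its skipping PSI was 0.00625 and 0.0163 (p = 0.204 in the authors' LeafCutter test). In Ythdc2, an m6A reader with a helicase domain, the skipped stretch is a pair of exons, with 0.0290 and 0.0336 (p = 0.846 in the authors' LeafCutter test). Skipping was thus rare in all 3 reader genes, and none of them had an adjusted p under 0.05 for its higher value in treated cells.

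The other long single exons with a p-value of at most 0.05 lay further from the adjusted threshold. Urb2, a ribosome biogenesis factor, had a skipping PSI of 0.00342 and 0.0211 at an exon with 72.9% of its coding bases. Tex264, a receptor for autophagy of the endoplasmic reticulum, had 0.0415 and 0.0987. Both lay higher in treated cells, and the other 3 lay lower. Ncoa6 had 0.717 and 0.639, and Myb, a transcription factor of progenitor cells, 0.760 and 0.668. These 2 exons were mostly left out, and in both the upstream junction was the one with more use in treated cells, with 0.0761 and 0.176 for Ncoa6 and 0.0690 and 0.182 for Myb. Their downstream junctions had less use in treated cells, with 0.207 and 0.185 for Ncoa6 and 0.171 and 0.150 for Myb. Klf2, a factor of naive pluripotency, had 0.0213 and 0.00593 at an exon of 817 nt that holds 76.9% of its coding bases.

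Among parts that are not 1 exon, 6 more had a p-value of at most 0.05, and none an adjusted p under 0.2. Pdxdc1 (2 exons) had a skipping PSI of 0.0275 and 0.0547, and Dst (5 exons) 0.0966 and 0.131. Spata7 (2 exons), a protein of the photoreceptor cilium, had 0.0569 and 0.0171, and Pds5a (3 exons), a cohesin regulator, 0.00839 and 0.00584. The cluster of Sfpq, a paraspeckle and splicing factor, leads from a last-exon acceptor to an unannotated donor, and had 0.163 and 0.218. The Zfp626 and Zfp59 cluster, which spans 2 zinc finger genes, had 0.0133 and 0.0968. For Pds5a the inclusion junctions, with 0.455 and 0.492 upstream and 0.537 and 0.502 downstream, differed more than the skipping junction did.

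**Figure D4:**
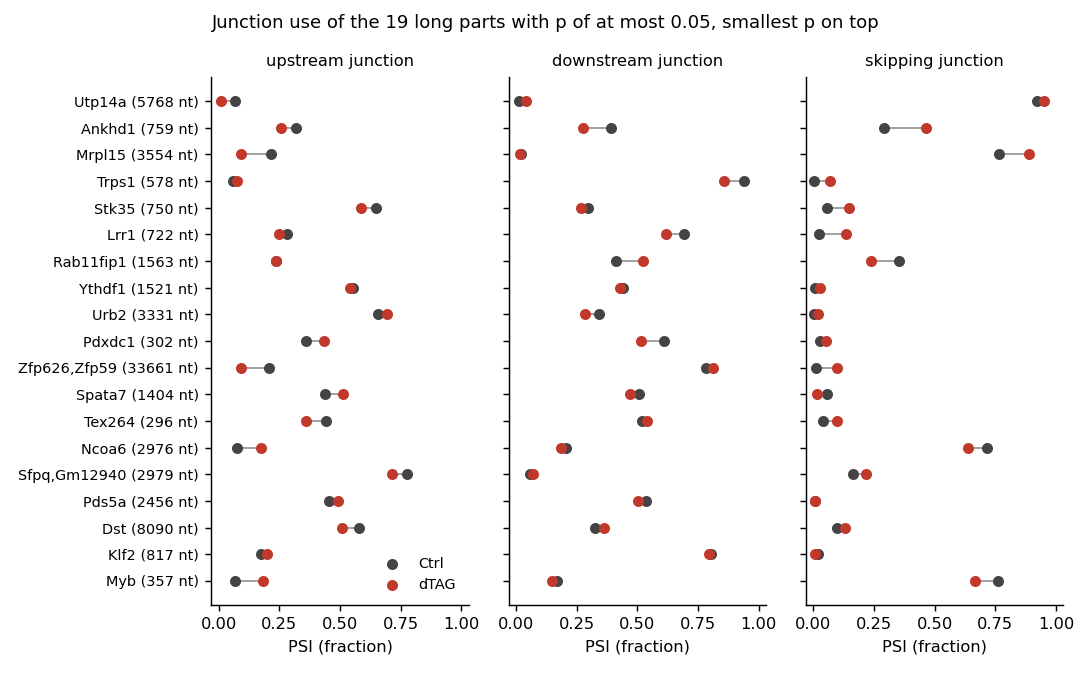
PSI of the upstream, downstream and skipping junctions in Ctrl (grey) and dTAG (red) cells for the 19 long parts with a p-value of at most 0.05, ordered by p with the smallest on top. The skipping junction lies further right in dTAG cells in 13 of the 19. The upstream junction lies further left for Utp14a and Mrpl15, and also for others such as Ankhd1, Stk35 and Lrr1.

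Large differences without a small p-value were also present. The cluster that joins Adat3 and Scamp4 had a skipping PSI of 0.420 and 0.286 (p = 0.151 in the authors' LeafCutter test). Triml1 had 0.424 and 0.522 (p = 0.201), and the 255-nt exon of Zmym3, which encodes a zinc finger protein of histone deacetylase complexes, 0.135 and 0.230 (p = 0.0639 in the authors' LeafCutter test). A second long exon of Zmym3, of 295 nt, had 0.123 and 0.106.

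The genes were also grouped by what they do, and the counts stand beside 6.84% of all tested clusters and 10.2% of the 186 long parts with a p-value of at most 0.05. RNA-binding and splicing proteins formed the largest set, with 18 clusters in 17 genes. Only 1 of them, that of Sfpq, had a p-value of at most 0.05, and the skipping PSI in untreated cells ran from 0.00928 to 0.889. Several of these parts were mostly skipped, among them those of Son (0.863), Luc7l2 (0.822) and Srsf4 (0.594). Transcription factors had 13 clusters, of which 4 had a p-value of at most 0.05 (Trps1, Klf2, Myb and the Zfp626 and Zfp59 cluster). The YTH family readers had 3 clusters with 1 (Ythdf1). Chromatin regulators had 14 clusters with 1 (Ncoa6), protein kinases 7 with 1 (Stk35), and genome maintenance 6 with 1 (Pds5a). Membrane trafficking and transporters had 12 with 1 (Rab11fip1), mitochondrial proteins 9 with 1 (Mrpl15), and cytoskeleton, adhesion and motors 14 with 1 (Dst). The 10 clusters of ubiquitin and SUMO pathway genes had none at this unadjusted threshold in the LeafCutter test, and hence 0 with an adjusted p under 0.05. The groups were drawn up with the values known and cover 106 of the 186 parts.

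Length within the group was looked at for single exons. Of 24 single exons over 500 nt, 9 had a p-value of at most 0.05, or 37.5%, and of 48 between 250 and 500 nt, 2 had, or 4.17%, against 6.84% of all tested clusters and 100 of 2002 single exons of up to 250 nt. This split was chosen after the values were seen and was not tested. Among the 24, skipping PSI was higher in treated cells in 17. For all parts over 500 nt, whatever the annotation, the count was 16 of 121, or 13.2%. Above 3000 nt the 5 parts with a p-value of at most 0.05 all had higher skipping in treated cells, but only 17 of the 37 parts of that length did.

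**Figure D5:**
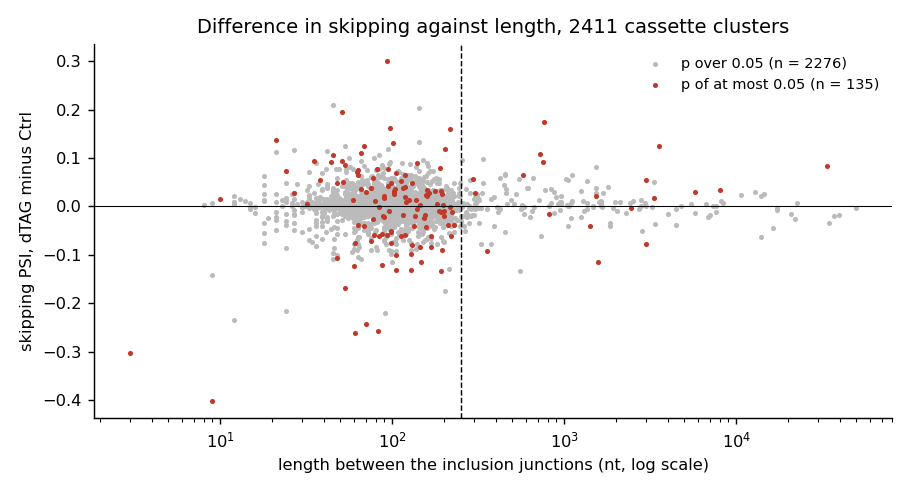
Difference in skipping PSI (dTAG minus Ctrl) against the length between the inclusion junctions in nt (log axis) for 2411 cassette clusters, red where p was at most 0.05, with a dashed line at 250 nt. Differences of the long parts lie between -0.134 and 0.175, and those of the shorter cassettes between -0.402 and 0.300.

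GGACT was present on the transcript strand of 118 of the 186 long parts, or 63.4%, and on the opposite strand of 110, or 59.1%. In the shorter cassettes it was present in 10.1%. A longer stretch holds a given motif more often, and per length GGACT came to 0.812 per kb in the long parts and 1.02 per kb in the shorter cassettes. In the 72 long single exons it came to 0.977 per kb, with 1.43 per kb on the opposite strand. For 140 long parts an equal-length window in the middle of the longer flanking intron could be placed, and 61 of these windows held GGACT, against 75 of the 140 parts. For 64 single exons the counts were 16 windows against 27 exons, or 25.0% against 42.2%. Of the 19 parts with a p-value of at most 0.05, 18 held the motif, Lrr1 being the exception. These 19 had a median length of 1521 nt against 907.5 nt for all long parts, and per length they had 0.904 per kb. No m6A measurement was used, and a motif match is not a methylated site.

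At the threshold, the nearest cassettes outside were the 250-nt exons of Mcm6 and Nvl, with a skipping PSI in untreated cells of 0.0115 and 0.0715, and the 249-nt exon of Zc3h4 with 0.707. The nearest inside were Larp4b (252 nt, 0.157), Rab5c (254 nt, 0.0224), and the 255-nt exons of Kmt2e (0.0968), Birc2 (0.0865) and Zmym3 (0.135). None of these 8 clusters had a p-value of at most 0.05. At the other end, the 5 longest parts were those of Dync1h1 with a skipping PSI of 0.0240 in untreated cells, Lefty2 and Lefty1 (39805 nt, 0.215), EU599041 (36912 nt, 0.0947), the Mdrl cluster (34437 nt, 0.0779) and Zfp626 and Zfp59 (33661 nt). Of these 5, only the last had a p-value of at most 0.05.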

How the data were processed

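The authors aligned 4sU-seq reads of 12 samples to mm10 with STAR 2.5.2b, kept uniquely mapped reads, and ran LeafCutter with both clones pooled. Their deposited table of introns holds PSI as a fraction for each condition, and their deposited table of clusters holds a p-value from a likelihood-ratio test. The deposited log effect, PSI difference, likelihood ratio and adjusted p were not used. The p-values were adjusted anew over all 7263 tested clusters by the method of Benjamini and Hochberg. Intron coordinates name the flanking exon bases, so a part runs from the end of the first intron to the start of the second, which gives 3 nt for Cyth2 and 61 nt for Btbd7. All 3 introns of 183 of the 186 parts had GT-AG ends, the other 3 parts having a GC donor. Annotation was GENCODE vM21.

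Named are parts with a p-value of at most 0.05, the 10 largest differences, the 5 longest and 5 shortest, the 3 nearest cassettes below the threshold, and the 5 highest and 5 lowest in skipping. Some parts and sequences that these rules or kinds cover are not reported here. Others are examples of a kind, picked with their values known. The members and lists were chosen with earlier results of these data known. The p-value adjustments and the finder of cassettes with 3 introns were tested on simulated data, and the other steps were not. Without sample values or counts, the depth is unknown, no replicate was compared, and no interval is given. Python 3.11.15 was used with numpy 2.4.6, pandas 2.3.3, scipy 1.17.1, pysam 0.24.0 and matplotlib 3.10.9.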

Additional observations from a re-analysis of the deposited data

How the results depend on the processing

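The count of 4 changed clusters stayed at 4 with adjustment over cassette clusters only, and became 8 with an adjusted p under 0.2, 19 with no adjustment and 1 with Holm adjustment. The count of 19 parts with a p-value of at most 0.05 was between 14 and 27 with thresholds of 200, 300 or 500 nt, or without parts that hold an annotated intron, have several gene names or hold another intron of the tables. It was 11 for parts that equal 1 annotated exon, and 64 of 643 with cassettes embedded in larger clusters (9.95%). The count of 5 differences of at least 0.1 was 32 at a size of 0.05 and 14 when inclusion was taken from the mean of both junctions. With that measure the median skipping in untreated cells was 0.152 in place of 0.0825. The median difference of 0.00211 became 4.12e-04 over 200 nt, 0.00517 over 300 nt, 0.00459 over 500 nt and 0.00114 without parts that hold an annotated intron. GGAC in place of GGACT was present in 89.2% of the long parts. No paired analysis was possible because the tables hold no value per sample, and for the same reason no replicate could be left out. The authors required a minimum number of split reads for an intron cluster. Depth beyond that minimum is unknown, so which parts were too shallow for the test cannot be told.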

Other observations

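Skipping junctions of the long parts were annotated in GENCODE vM21 in 107 of 186 cases, or 57.5%, and those of the shorter cassettes in 60.7%. Among the 8 long parts with an adjusted p under 0.2, the unannotated skipping junctions were those of Trps1 and Ythdf1.

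The introns that flank the long parts had a median length of 2617 nt upstream and 2310.5 nt downstream, and those of the shorter cassettes 1378 and 1449 nt. GC content had a median of 49.8% in the 72 long single exons, 43.0% in parts with annotated introns and 47.9% in the shorter cassettes. None of these differences was tested.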
